A study of Mus musculus with 12 samples.

Results

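Fos, Egr1 and Btg2, members of a group of 10 immediate early genes, were lower in the livers of Ppara KO mice than in those of WT mice, while the other 7 were not called. The group holds the AP-1 subunit genes Fos, Fosb, Jun, Junb and Jund, the zinc finger factor gene Egr1, and Ier2, Btg2, Dusp1 and Zfp36. Its genes were taken by symbol from the platform annotation, and all 10 were found among the 22180 genes tested. Each had 1 transcript cluster, the array's unit of summarised probes for a gene, except Jund, which had 2 and was read through the one with the higher mean. The tissue was whole liver of adult female C57Bl/6 mice aged 12 to 14 weeks, 6 with the genotype label Ppara KO and 6 WT. Ppara encodes PPARα, a fatty acid-sensing nuclear receptor. The labels name neither the allele, the time of collection nor the feeding state. RNA of each animal was hybridised to 1 MoGene 2.0 ST array, and all values are log2 expression after RMA, the authors' normalization and probe summary.

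Immediate early genes are transcribed within minutes of a growth factor, hormone or stress signal, without new protein synthesis. Signals reach them through MAP kinases, the serum response factor SRF with its ternary complex partners, and the cAMP-responsive factor CREB. FOS proteins pair with JUN proteins to form AP-1, EGR1 binds GC-rich DNA, and BTG2, DUSP1 and ZFP36 act as brakes on growth, MAP kinases and unstable mRNAs. In liver the group is known for its surge after partial hepatectomy and on isolation of hepatocytes.

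The regulatory stretches before Fos, Btg2 and Dusp1 are shown because Fos and Btg2 were called lower and Dusp1 was not, although all hold the core of the cAMP response element (CRE). Each line gives the 250 bases before the gene's start from RefSeq, build GRCm38.p6, 5′ to 3′ on the gene's strand. Capitals mark TGACG on either strand, the CRE half-site. The stretches are chr12:85473640-85473889 on the plus strand (Fos), chr1:134079156-134079405 on the minus strand (Btg2) and chr17:26508473-26508722 on the minus strand (Dusp1).
Fos: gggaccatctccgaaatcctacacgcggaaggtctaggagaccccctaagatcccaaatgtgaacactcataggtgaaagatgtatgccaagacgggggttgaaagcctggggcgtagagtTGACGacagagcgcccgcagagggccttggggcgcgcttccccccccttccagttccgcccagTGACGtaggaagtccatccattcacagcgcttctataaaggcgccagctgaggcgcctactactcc
Btg2: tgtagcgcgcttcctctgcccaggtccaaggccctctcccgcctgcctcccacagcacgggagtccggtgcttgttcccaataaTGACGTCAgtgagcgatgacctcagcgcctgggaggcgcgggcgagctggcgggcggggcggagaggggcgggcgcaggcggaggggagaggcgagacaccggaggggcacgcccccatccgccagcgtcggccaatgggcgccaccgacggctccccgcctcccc
Dusp1: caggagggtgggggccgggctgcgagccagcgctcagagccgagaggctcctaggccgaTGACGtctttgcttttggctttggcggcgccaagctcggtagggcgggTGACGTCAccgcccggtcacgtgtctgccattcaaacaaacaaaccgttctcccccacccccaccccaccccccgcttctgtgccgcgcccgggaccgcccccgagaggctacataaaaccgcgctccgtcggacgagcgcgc

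The promoter table, whose windows run from 250 bases before to 50 bases after a start, matched 8 of the 10 genes, all but Egr1 and Ier2. Searched on both strands, the half-site TGACG lay in 5 of the 8 windows (Fos, Fosb, Junb, Btg2 and Dusp1), against 20.8% of all 32851 windows. The full palindromic element TGACGTCA, which contains the half-site on both strands, lay in Btg2 and Dusp1 and in 1.79% of all windows. The CArG box, the binding motif of SRF, lay in the window of Zfp36 alone among the 8 and in 1.63% of all. Sites farther than 250 bases before a start were not searched, so a gene without a match may still hold the motif there. The E-box CACGTG, read by the clock factors CLOCK and BMAL1, lay in Dusp1 alone and in 7.15% of all. The AP-1 motif TGANTCA, the EGR motif GCGTGGGCG and the GC box GGGGCGGGG lay in 0 of the 8 windows, against 7.81%, 0.612% and 11.4% of all. The CRE core was present in the windows of Fos and Btg2, called lower, and of Fosb, Junb and Dusp1, not called. Egr1, also called lower, had no window. The part of these motifs in the calls was not tested. The capitals and the choice of the 3 printed genes were made after the matches were seen.

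Before the single genes, the arrays as a whole were checked. Over all 22180 genes, limma with Benjamini-Hochberg adjustment called 10.2% at an adjusted p under 0.05, 5.77% lower and 4.46% higher in Ppara KO. At an unadjusted limma p under 0.05, 2598 of the 22180 genes were lower and 2491 higher. Hepatocyte markers fitted the tissue label, with Alb (albumin) at 13.16 ± 0.03 in Ppara KO and 13.20 ± 0.03 in WT (log2 mean ± SD, n = 6 each), and 0 of 6 such markers were called by limma (0 at an unadjusted p under 0.05 as well). Ppara itself stood at 8.01 ± 0.13 in Ppara KO and 7.98 ± 0.16 in WT (limma adjusted p = 0.882), and the sources used here do not say whether its probes lie in the disrupted part, so this does not check the labels. Some libraries stood apart: averaged over 7 adipocyte markers, the log2 level ranged between 4.28 and 4.53 among Ppara KO livers, against 5.29, 4.62, 5.97, 4.52, 6.01 and 4.84 for WT livers 1 to 6, so that WT 1, 3 and 5 were highest. Array values have no zero, and signal above background was not tested. Clock genes separated the genotypes, with 9 of 13 higher and 3 lower in Ppara KO. In whole liver, fewer cells of a type and less RNA per cell cannot be told apart.

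Fos, whose protein is the inducible partner in AP-1, was lower in every Ppara KO animal than in any WT animal. Its log2 values were 5.01, 4.83, 4.47, 4.65, 5.00 and 5.04 in Ppara KO livers 1 to 6, against 6.02, 5.97, 6.35, 6.79, 6.22 and 5.08 in WT livers 1 to 6. The gap between the groups was narrow only because of WT 6, which at 5.08 lay just above the highest Ppara KO value of 5.04, while the other 5 WT livers were at 5.97 or more. Fos was 2.36-fold lower, a log2 difference of -1.24 (SE 0.212, 95% interval -1.69 to -0.79, limma adjusted p = 0.00152), and the exact 2-sided permutation test over animals gave p = 0.00216, the smallest that 6 against 6 allows. Values of the 6 animals in one genotype lay wholly below those in the other, with Ppara KO lower, in 3.78% of all genes.

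Egr1, a transcription factor gene induced by growth factors, showed a fall of the same order with more overlap. It had log2 values of 7.03, 5.21, 5.67, 5.70, 6.57 and 6.37 in Ppara KO livers 1 to 6 and 7.74, 6.74, 7.51, 7.45, 7.94 and 6.79 in WT livers 1 to 6. Ppara KO 1 was above WT 2 and WT 6, and the other 5 Ppara KO livers were below every WT liver. The difference was -1.27 (SE 0.285, 95% interval -1.87 to -0.66), or 2.41-fold lower, with a limma adjusted p of 0.00987 and an exact 2-sided permutation p of 0.00866.

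Btg2, an antiproliferative gene that is also a target of p53, was 1.70-fold lower. Its log2 values were 6.43, 5.61, 6.06, 5.96, 5.94 and 5.90 in Ppara KO livers 1 to 6, against 6.62, 6.51, 6.86, 7.34, 6.87 and 6.31 in WT livers 1 to 6. As with Egr1, Ppara KO 1 alone reached into the WT range, where it lay above WT 6. The difference was -0.77 (SE 0.158, 95% interval -1.11 to -0.43, limma adjusted p = 0.00574; exact 2-sided permutation p = 0.00433).

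**Figure D1:**
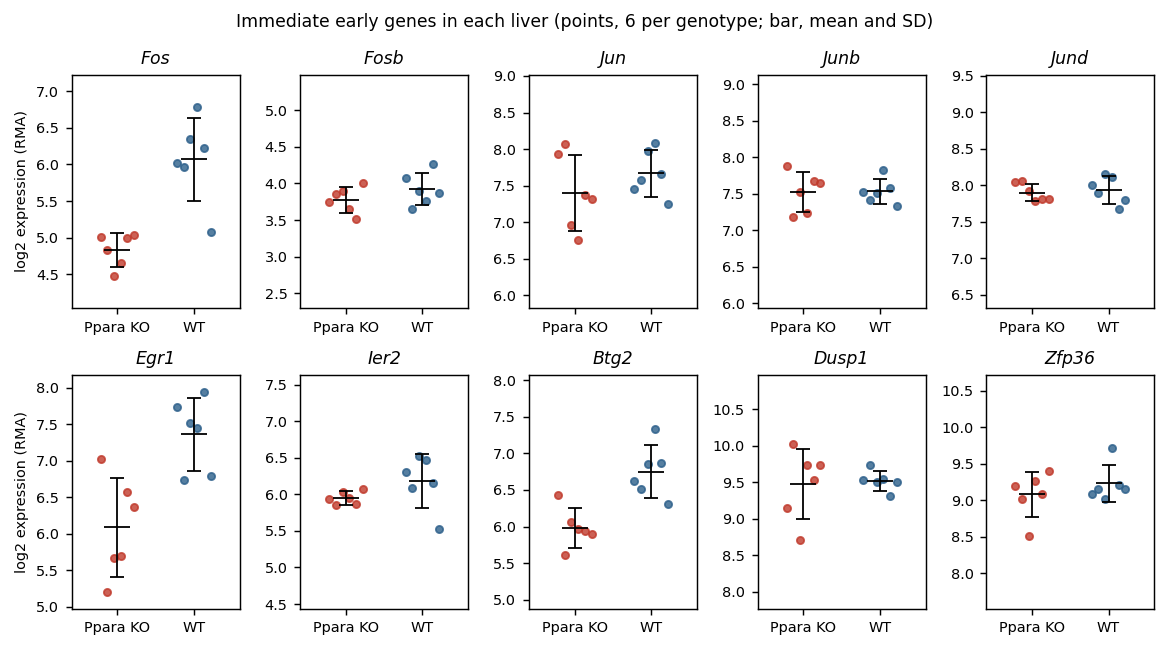
Log2 expression (RMA) of the 10 immediate early genes in each liver, Ppara KO left and WT right, with the mean and SD of 6 animals; every panel spans the same number of log2 units. Fos has no overlap between genotypes, Egr1 and Btg2 overlap through Ppara KO 1 alone, Ier2 overlaps through WT 6 alone, and the other 6 genes overlap through several animals.

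The calls of all 3 genes held when any 1 animal was left out, with limma adjusted p-values of at most 0.00476 for Fos, 0.0262 for Egr1 and 0.0146 for Btg2. Leaving out WT 1, 3 and 5 together, which had the highest adipocyte marker levels, ended calls: Fos kept a difference of -1.11 (limma adjusted p = 0.0444), while Egr1 at -0.90 (limma adjusted p = 0.174) and Btg2 at -0.74 (limma adjusted p = 0.0769) were no longer called. Egr1 was at 7.74, 7.51 and 7.94 in those 3 animals, and at 6.74, 7.45 and 6.79 in WT 2, 4 and 6. With 3 WT animals fewer, the calls over all genes also dropped, to 1008, against 2268 with all 12. Of the adipocyte markers, 3 of 7 were called lower in Ppara KO and 0 higher, beside 5.77% of all genes called lower. At an unadjusted limma p under 0.05, 6 of the 7 were lower and 0 higher, beside 2598 lower and 2491 higher of all 22180 genes. The median difference of the 7 markers was -0.68. The part of these markers in the results for Egr1 and Btg2, and that of the clock genes, was not tested.

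Ier2, a small nuclear factor gene of the same early wave, came closest among the genes not called. It had log2 values of 5.94, 5.85, 6.03, 5.95, 5.87 and 6.07 in Ppara KO livers 1 to 6, against 6.31, 6.09, 6.53, 6.47, 6.15 and 5.52 in WT livers 1 to 6. The Ppara KO livers lay below 5 of the WT livers, and WT 6 was the lowest of the 12. The difference was -0.23 (95% interval -0.52 to 0.06, limma adjusted p = 0.355), but -0.36 without WT 6, where limma called it (adjusted p = 0.0230). That 1 animal therefore decided whether Ier2 counted among the genes called.

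The other AP-1 subunit genes were not called. Fosb, the closest relative of Fos, lay between 3.51 and 4.00 in Ppara KO (median 3.80) and between 3.65 and 4.27 in WT (median 3.88); only WT 5, at 4.27, lay above the array medians of 4.13 to 4.17, and its 95% interval was -0.38 to 0.08. Jun, the main partner of FOS, lay at 6.75 to 8.07 in Ppara KO (median 7.34) and 7.25 to 8.09 in WT (median 7.62), and its 95% interval of the log2 difference ran from -0.72 to 0.18. Junb, a JUN relative that often restrains proliferation, lay at 7.18 to 7.88 in Ppara KO (median 7.58) and 7.33 to 7.82 in WT (median 7.51), with an interval of -0.26 to 0.24. Jund, the most constitutive of the JUN genes, lay at 7.78 to 8.06 in Ppara KO (median 7.87) and 7.67 to 8.16 in WT (median 7.95), with an interval of -0.23 to 0.16. The lower bounds for Junb, Jund and Jun all lie above the estimate of -1.24 for Fos, and the lower bound for Jun is the farthest from 0. The second Jund cluster gave a difference of 0.10 (SE 0.158).

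The remaining genes, Dusp1 and Zfp36, encode feedback proteins. Dusp1, the MAP kinase phosphatase MKP-1, had log2 values of 9.15, 10.03, 8.71, 9.74, 9.53 and 9.73 in Ppara KO livers 1 to 6, against 9.53, 9.73, 9.51, 9.55, 9.31 and 9.50 in WT livers 1 to 6. Its means differed by only -0.04 (95% interval -0.41 to 0.33, limma adjusted p = 0.927), but its values were spread more widely in Ppara KO, with an SD of 0.48 against 0.14 in WT. Zfp36, whose protein tristetraprolin speeds the decay of mRNAs with AU-rich elements, lay at 8.51 to 9.40 in Ppara KO (median 9.14) and 9.02 to 9.72 in WT (median 9.15), and its interval was -0.45 to 0.16.

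The spread among animals thus differed between genes and genotypes. The ratio of the SD in Ppara KO to the SD in WT was 3.54 for Dusp1, a value reached by 0.951% of all genes, and 0.241 for Ier2, at or below which lay 0.600% of all genes. For Fos it was 0.403, at or below which lay 4.17% of all genes, and for the median gene 1.01. Without WT 6, the lowest WT liver for both genes, the ratios were 0.456 for Ier2 and 0.695 for Fos. The ratio of Dusp1 was 2.41 to 4.98 when single animals were left out. These ratios describe 6 animals each and were not tested.

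Of the 10 genes, limma called 3 lower and 0 higher in Ppara KO (0 higher at an unadjusted p under 0.05 too), beside 5.77% of all genes called lower. Their median difference was -0.19, against 0.009 over all genes. All 10 estimates were below 0, but those of Fosb, Junb, Jund and Dusp1 were near 0 and turned positive under at least 1 alternative treatment of the data.

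**Figure D2:**
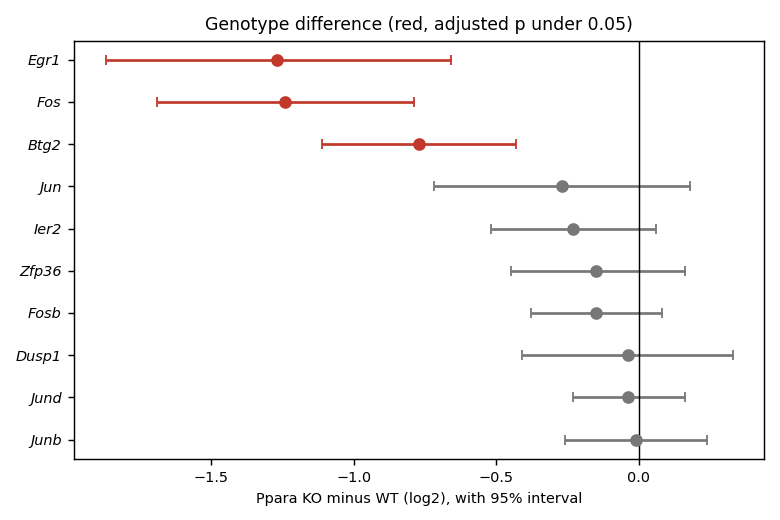
Difference between Ppara KO and WT (log2, points) with its 95% limma interval (bars) for the 10 genes, red where the adjusted p is under 0.05. The intervals of Egr1, Fos and Btg2 lie below 0, from -1.87 to -0.43 in all, and the intervals of the other 7 include 0.

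Animals also differed from others of their own genotype, and part of this variation was shared between genes. WT 6 had the lowest WT value of 5 of the 10 genes (Fos, Jun, Junb, Ier2 and Btg2), and WT 4 had the highest WT value of 5 (Fos, Jun, Junb, Btg2 and Zfp36). Among Ppara KO animals, Ppara KO 1 had the highest values of Junb, Egr1 and Btg2, and Ppara KO 6 those of Fos, Fosb, Ier2 and Zfp36. Ppara KO 2 had the lowest values of Junb, Egr1, Ier2 and Btg2, and Ppara KO 3 those of Fos, Dusp1 and Zfp36. Ppara KO 2 was at the same time the highest of its genotype for Jun, Jund and Dusp1, so it was not low across the group.

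**Figure D3:**
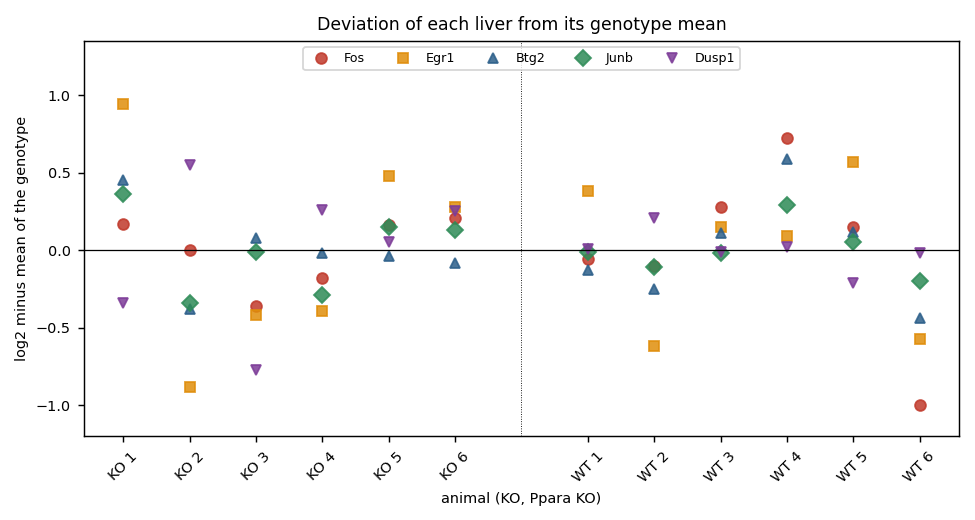
Deviation of each liver from the mean of its genotype (log2) for Fos, Egr1, Btg2, Junb and Dusp1, with the 6 Ppara KO animals left and the 6 WT animals right. Fos, Egr1, Btg2 and Junb lie below 0 together in WT 2, WT 6 and Ppara KO 4, and above 0 together in Ppara KO 1, WT 4 and WT 5. Dusp1 lies on the other side of 0 from them in Ppara KO 1, Ppara KO 4, WT 2 and WT 5. In Ppara KO 2, Dusp1 is above 0, Egr1, Btg2 and Junb are below, and Fos is near 0.

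To measure shared variation, each gene was centred on its genotype mean, and the 45 pairs were correlated over the 12 animals. The median Pearson r was 0.28, with 32 pairs above 0, against a median of 0.00 over all pairs of tested genes and 0.01 over pairs of genes at or above the median level. An r of 0.80 or more was found in 3 pairs (6.67%), beside 0.180% of all gene pairs and 0.220% of pairs of the brighter genes. These were Junb with Egr1 (r = 0.82), Fos with Ier2 (r = 0.81) and Junb with Btg2 (r = 0.80). The values of all genes come from the same 12 arrays.

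After adjustment over the 45 pairs, 1 pair passed the permutation test within genotypes: Junb with Btg2 (r = 0.80, Spearman rho 0.69, permutation p = 0.00085 for r and 0.00973 for rho, adjusted 0.0382 and 0.165). Its r was 0.76 in Ppara KO (exact permutation p = 0.0722, n = 6) and 0.98 in WT (exact permutation p = 0.00417, n = 6), and 0.67 without Ppara KO 1 and 2, the animals farthest from the median of Junb. The pair kept an adjusted permutation p under 0.05 in 3 of 12 analyses that left out 1 animal, those without Ppara KO 3, 4 or 6. Unadjusted, 8 pairs had a permutation p under 0.05.

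Fos and Ier2 had r = -0.17 in Ppara KO (exact permutation p = 0.767, n = 6) and r = 0.92 in WT (exact permutation p = 0.0181, n = 6). The pooled value, 0.81 (Spearman rho 0.56), dropped to 0.23 without WT 4 and 6, so it rested on those animals; its adjusted permutation p was 0.162 for r and 0.443 for rho. The difference between the genotypes was not tested. Fos and Jun, the classical AP-1 pair, had r = 0.63 (rho 0.73, adjusted permutation p = 0.0824 for r and 0.165 for rho), 0.58 in Ppara KO, 0.92 in WT, and 0.62 without WT 4 and 6. Dusp1 had negative values beside Junb (r = -0.46), Btg2 (r = -0.45) and Egr1 (r = -0.35) and its highest value beside Zfp36 (r = 0.50), none of which passed the adjusted test. Without Ppara KO 1 and 2, its r was -0.12 with Junb and 0.06 with Egr1. It was -0.55 with Btg2 without Ppara KO 1 and WT 4, and 0.17 with Zfp36 without Ppara KO 2 and 3. Of their 9 pairs each, 4 were above 0 for Dusp1 and 2 for Fosb.

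**Figure D4:**
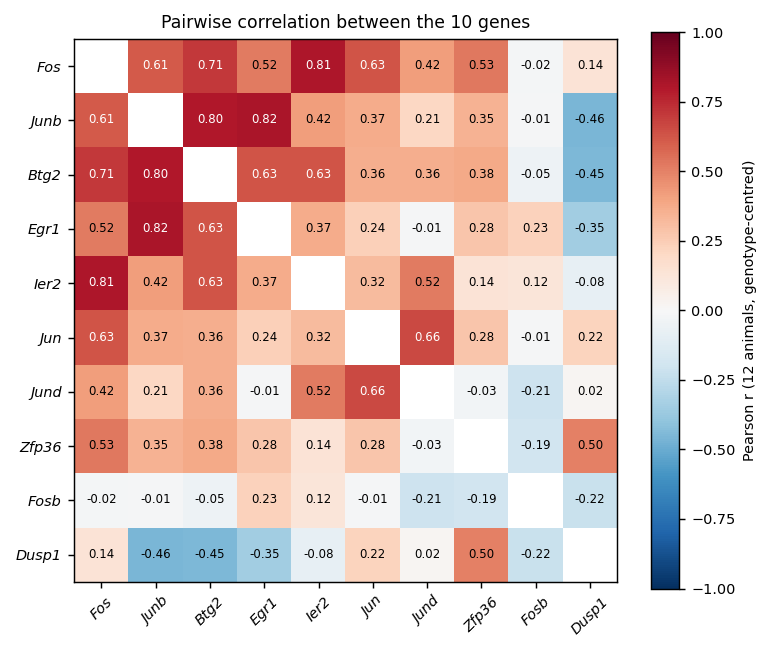
Pearson r between the genotype-centred log2 values of each pair of the 10 genes over 12 animals, red for positive and blue for negative. The block formed by Fos, Junb, Btg2, Egr1 and Ier2 holds values from 0.37 to 0.82, whereas Fosb and Dusp1 have low or negative values with most other genes. The order of the genes was set by hand, so the block is a description only. Values outside it reach 0.66 (Jun with Jund) and 0.63 (Fos with Jun).

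Among genes outside the group, those most like the mean of the 10 centred values over the 12 animals were Myo1a (r = 0.90), Cyb5rl (r = 0.88), Zfp787 (r = 0.86), Gucy2g, Cdh16, Entpd5 and Gabarapl1 (r = 0.85 each) and Chchd4 (r = 0.84). Of these 8, limma called Cyb5rl lower (-0.31, SE 0.0761, adjusted p = 0.0170) and Gabarapl1, an autophagy gene, higher in Ppara KO (0.61, SE 0.101, adjusted p = 0.00129). Myo1a, Gucy2g and Cdh16 were dim, with means of 2.61, 3.57 and 3.68 in Ppara KO and 2.71, 3.53 and 3.67 in WT. These lie below the array medians of 4.13 to 4.17. No p-value belongs to the likenesses of the 8 genes, which are the extremes of a search over all genes.

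Counts in the lists that follow stand beside 5.77% of all genes called lower and 4.46% called higher, and a median difference of 0.009. Those at an unadjusted limma p under 0.05 stand beside 2598 lower and 2491 higher of all 22180 genes. Of 30 other early response genes, limma called 3 lower and 3 higher in Ppara KO and 24 in neither direction, with a median difference of -0.03. Gadd45g, a growth arrest and stress gene, resembled Fos in its genotype difference but not in its order of animals. Its log2 values were 6.22, 6.49, 6.93, 6.62, 6.55 and 6.42 in Ppara KO livers 1 to 6, against 7.85, 7.91, 8.08, 9.01, 7.14 and 7.88 in WT livers 1 to 6. Ppara KO 3, the lowest of its genotype for Fos, was the highest for Gadd45g. The groups did not overlap, and the gene was 2.71-fold lower (-1.44, SE 0.222, limma adjusted p = 0.000684). Nfil3, a bZIP repressor gene that is also tied to the clock, was lower too, at 5.97 to 6.71 in Ppara KO and 7.40 to 7.73 in WT (-1.23, SE 0.115, limma adjusted p = 6.8e-06).

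The third fall was Ccn2, a secreted matricellular factor gene and SRF and YAP target (-0.37, SE 0.111, limma adjusted p = 0.0483), whose call held in 2 of 12 analyses without 1 animal. The rises were Klf10, a TGFβ-inducible and rhythmic factor gene (0.56, SE 0.153, limma adjusted p = 0.0306), and the polo-like kinase genes Plk2 (0.35, SE 0.0870, limma adjusted p = 0.0183) and Plk3 (0.61, SE 0.173, limma adjusted p = 0.0351). Of these, Plk2 kept its call in all 12 analyses without 1 animal, Klf10 in 6 and Plk3 in 5. The abundant early genes Ccn1 (0.01, SE 0.148) and Sik1 (0.18, SE 0.185) were not called. Nor were the close relatives of FOS and JUN: limma called 0 of 11 AP-1 relatives, among them Atf2 (-0.09, SE 0.0652) and Atf7 (0.07, SE 0.0897), with 1 higher and 1 lower at an unadjusted p under 0.05.

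Upstream of the group, 2 of 14 transcription factor and coactivator genes were lower and 0 higher. Crtc3, a cAMP-regulated coactivator of CREB, was 1.26-fold lower with no overlap, at 6.54 to 6.90 in Ppara KO and 6.92 to 7.10 in WT (-0.34, SE 0.0708, limma adjusted p = 0.00653). Crem, a CREB relative with repressor isoforms, was also lower (-0.34, SE 0.0924, limma adjusted p = 0.0296), in 7 of 12 analyses without 1 animal. Mef2a (0.14, SE 0.0713) and Mef2d (-0.22, SE 0.0743) were not called by limma, nor was Srf (-0.12, SE 0.0747). Of 15 MAP kinase cascade genes 2 were higher and 0 lower. Map2k6, the gene of the p38-activating kinase MKK6, was 2.04-fold higher (6.13 ± 0.41 in Ppara KO and 5.11 ± 0.28 in WT, log2 mean ± SD, n = 6 each, limma adjusted p = 0.00147). The RNA of Mapk14, which encodes the MKK6 substrate p38α, had a smaller rise (0.26, SE 0.0749, limma adjusted p = 0.0364) that held in 3 of 12 analyses without 1 animal. Egfr (0.42, SE 0.160, limma adjusted p = 0.123) and Araf (-0.09, SE 0.0640) were not called.

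Genes of MAP kinase phosphatases and feedback inhibitors included 2 falls and 0 rises among 16, beside 5.77% of all genes called lower. Their median difference was -0.02. The MAP kinases they restrain include ERK, whose cascade induces Fos and Egr1, but not every gene of the list acts on ERK. Spry1, a Sprouty inhibitor of receptor tyrosine kinase signalling, lay at 4.86 to 5.28 in Ppara KO and 5.38 to 5.73 in WT (-0.50, SE 0.0871, limma adjusted p = 0.00189). Dusp6, the cytoplasmic ERK phosphatase and itself an ERK-induced gene, was 1.38-fold lower (-0.46, SE 0.129, limma adjusted p = 0.0326), a call kept in 4 of 12 analyses without 1 animal. Errfi1 (-0.24, SE 0.175) and Dusp16 (0.03, SE 0.0822) were not called.

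The relatives of Btg2 and Zfp36 and the mRNA decay factors had 3 rises and 2 falls among 14. Within the tristetraprolin family, Zfp36l1 was 1.47-fold lower (9.98 ± 0.20 in Ppara KO and 10.53 ± 0.13 in WT, log2 mean ± SD, n = 6 each; limma adjusted p = 0.00152) and Zfp36l2 1.31-fold higher (limma adjusted p = 0.0176), beside Zfp36 with no call. In the BTG and TOB family, Tob2 was 1.39-fold higher (0.48, SE 0.0794, limma adjusted p = 0.00122), opposite to Btg2, and Tob1 did not differ detectably (0.02, SE 0.0803). Elavl1, which encodes the mRNA-stabilising protein HuR, was lower (-0.29, SE 0.0732, limma adjusted p = 0.0179) and Hnrnpd, the AU-rich element binding protein AUF1, higher (0.27, SE 0.0734, limma adjusted p = 0.0286, in 6 of 12 analyses without 1 animal); Cnot6l (0.05, SE 0.0594) was not called. Calls of several of these genes ended when 1 of some animals was left out: Klf10 (Ppara KO 1, 5 or 6, or WT 2, 3 or 4), Plk3 (Ppara KO 1, 2, 5 or 6, or WT 1, 5 or 6), Crem (Ppara KO 1 or 3, or WT 2, 3 or 4) and Hnrnpd (Ppara KO 1 or 6, or WT 1, 2, 3 or 6). Ccn2 was called only without Ppara KO 5 or WT 3, Mapk14 only without Ppara KO 4, Ppara KO 5 or WT 2, and Dusp6 only without Ppara KO 1, WT 1, WT 5 or WT 6. Averaging the clusters of a gene, in place of taking the brightest, also ended 3 calls: Dusp6 was then at -0.22 (limma adjusted p = 0.285), Ccn2 at -0.21 (limma adjusted p = 0.266) and Hnrnpd at 0.24 (limma adjusted p = 0.0957). Without WT 1, 3 and 5 together, limma no longer called Ccn2, Plk2, Plk3, Crem, Crtc3, Mapk14, Hnrnpd or Fkbp5. Elavl1 and Zfp36l2 also lost their calls there, whereas Zfp36l1 (-0.65, limma adjusted p = 0.00863) and Tob2 (0.44, limma adjusted p = 0.0220) were.

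**Figure D5:**
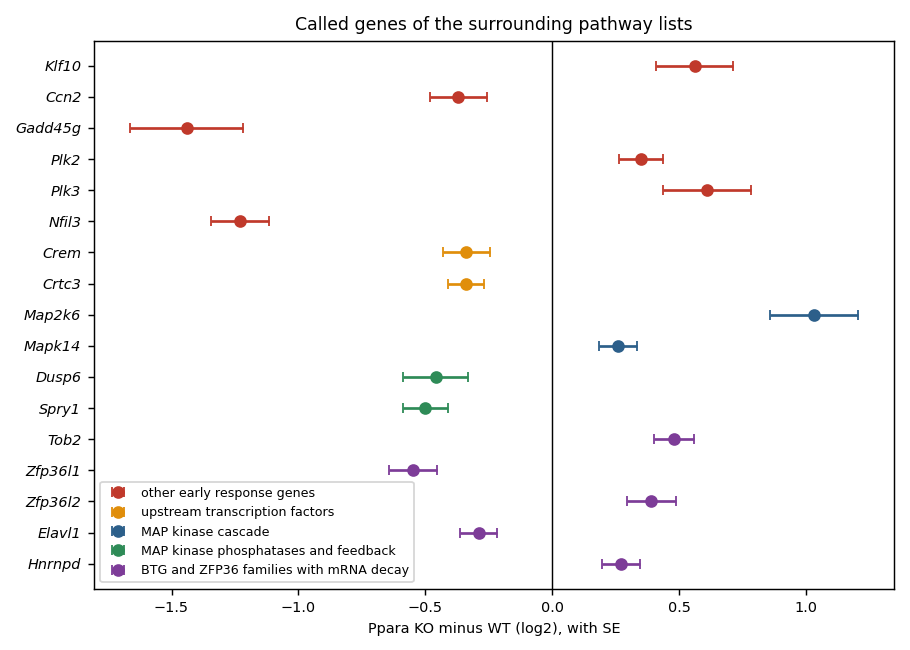
Difference between Ppara KO and WT (log2, points) with its SE (bars) for the genes called in 5 lists around the immediate early group, coloured by list. Gadd45g and Nfil3 lie farthest below 0, at -1.44 and -1.23, and Map2k6 farthest above, at 1.03.

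Genes that respond to glucocorticoids or heat stress, signals that also induce immediate early genes, gave a mixed picture. Of 10 glucocorticoid-responsive genes 2 were higher, Per1 (1.47, SE 0.146, limma adjusted p = 1.23e-05), which is also a clock gene, and Fkbp5 (0.55, SE 0.124, limma adjusted p = 0.00982). Cdkn1a, the p21 cell cycle inhibitor gene and like Btg2 a p53 target, was 3.88-fold lower (6.28 ± 0.86 in Ppara KO and 8.24 ± 0.30 in WT, log2 mean ± SD, n = 6 each; limma adjusted p = 0.000828). Mt2 (-0.14, SE 0.199) and Tat (0.11, SE 0.0656) were not called. Of 8 heat shock genes limma called 1 lower, Hsp90aa1 (-0.40, SE 0.0811, adjusted p = 0.00491), and 0 higher, with 1 higher at an unadjusted p under 0.05; the abundant Hspa8 (0.09, SE 0.0723) and Bag3 (0.21, SE 0.105) were not called.

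Markers of other cell types were counted in the same way. Limma called 0 of 7 lymphocyte, 0 of 6 neutrophil, 0 of 6 endothelial and 0 of 6 stellate cell markers. At an unadjusted limma p under 0.05, 0 lymphocyte and 0 neutrophil markers passed. Of the endothelial markers, 3 were lower in Ppara KO at that threshold and 0 higher. Of the stellate cell markers, 1 was lower and 1 higher. Of 8 macrophage markers 1 was higher, Cd5l (0.45, SE 0.128, limma adjusted p = 0.0351), 3 were higher at an unadjusted p under 0.05, and their mean log2 level was 7.59 to 8.33 in Ppara KO and 7.30 to 7.71 in WT. Marco, a Kupffer cell scavenger receptor gene picked out after its values were seen, did not overlap, at 6.28 to 8.39 in Ppara KO and 6.04 to 6.22 in WT (0.72, SE 0.269), but was not called (limma adjusted p = 0.110). Of 4 cholangiocyte markers 2 were lower, Krt19 and Sox9, and their mean log2 level was 4.50 to 5.02 in Ppara KO and 4.69 to 5.05 in WT. The part of these cells in the results above was not tested.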

How the data were processed

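Livers of 6 Ppara KO and 6 WT mice were measured on 1 array each, and the labels number the mice, so arrays are separate animals. The authors deposited log2 values; RMA and Partek, without versions, are named per the submitters' processing notes. The Ppara allele and annotation release are not given in the sources used here. RMA brings arrays to a common distribution and compresses differences of dim genes. Precision is limited by how many arrays there are, and the median SE of a log2 difference was 0.0926. Of 41345 clusters, 23521 had 1 symbol and 1814 several, and 16010 were not listed in the platform table. The cluster with the highest mean stood for a gene, which left 22180 genes. Differences, Ppara KO minus WT, were fitted with limma 3.58.1 in R 4.3.3 (lmFit, eBayes, 2-sided, no covariate), adjusted by Benjamini-Hochberg over all genes and called at an adjusted p under 0.05. Exact permutation tests used 924 assignments. Correlations were tested with 100000 permutations within genotypes, or all 720 orders within 1 genotype. The fit and the pair test were tested on simulated data. The pair test recovered the simulated linked pair but also called an unlinked pair. For the fit, 22180 genes were simulated for Ppara KO against WT, with 50 changed genes at each size. Of these, limma recovered 40% of 1.25-fold, 76% of 1.5-fold, 94% of 2-fold and 98% of 4-fold changes, with 6 false calls. Small changes can therefore go uncalled. The share of changed genes was smaller there than the 10.2% called in the data, so recovery in the data can differ. Named genes are the 10 members and, per list, at most 5 called genes taken in order of adjusted p and the brightest 2 not called, with the 8 genes most like the member mean; Ccn2, Srf and the genes of counts of 5 or fewer were named beyond this rule. The members and lists were chosen with earlier results of these data known.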

Additional observations from a re-analysis of the deposited data

Results flagged for a closer look

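Zfp36 in WT 4, at a log2 value of 9.72, lay far above the other 5 WT livers, which were at 9.02 to 9.21. The gap was 0.725 of the whole WT range, above Dixon's 95% critical value for 6 values. Over the 20 sets of values looked at (10 genes in 2 genotypes), chance flags about 1 in 20. WT 4 also had the highest WT values of Fos, Jun, Junb and Btg2.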

How the results depend on the processing

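The count of 3 genes lower and 0 higher in Ppara KO moved to 1 lower without WT 1, 3 and 5; it was 2 lower without WT 1, 2 and 3, where Egr1 was at -1.30 (limma adjusted p = 0.0698), and 3 to 4 lower when single animals were left out. Fos was called under all 24 alternatives run (-1.44 to -1.09), Egr1 under 22 (-1.45 to -0.90) and Btg2 under 23 (-0.86 to -0.65). At an adjusted p under 0.01 limma called 1070 genes, Fos, Egr1 and Btg2 among them, against 2268. With the replicate number as a block, limma adjusted p-values were 0.00886 for Fos, 0.00242 for Egr1 and 0.0084 for Btg2. That fit gave 3 lower genes and 1672 calls over all genes. Same-numbered animals deviated with r between -0.06 and 0.09, and 1 of 6 Ppara KO animals correlated best with its own number. No pairing by number was thus seen in these values, and the labels only number the mice. Of the 45 pairs, 1 passed; 0 passed with Spearman and 0 without WT 1, 3 and 5, an alternative chosen after seeing the data, and 0 to 2 passed with single animals left out. The causes of these losses were not tested; fewer animals and a stricter threshold act by construction. Fosb was not in the test of brighter genes. The SD ratios without single animals were added after seeing the data.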
